A study of Mus musculus with 19 samples.

Results

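The comparison set 8 medulloblastomas from mice given NVP-LDE225 at 160 mg/kg against 8 from mice given it at 40 mg/kg, a dose 4 times lower. These are 16 of the 19 arrays of the series. They were chosen by the sample descriptions (LDE225AZ with the dose), and the 3 vehicle arrays were left out. RNA came from frozen tumour tissue grown under the skin of nude mice, 1 array per sample, here called a tumour. The tumour cells of both groups had the genotype Ptch+/-p53-/-, were taken fresh from tumours of such mice and were injected into the flank. Dosing began after the grafts had formed, mice were assigned to groups at random, and all 16 samples have the tumour status Resistant. Ages, treatment length, the number of donor tumours and the time of harvest are not given in the sources used here. Nude mice have no mature T cells of thymic origin, which limits them as hosts for a study of immune genes. The groups therefore differ in dose alone as far as the labels say, except that tumours 6 and 7 at 160 mg/kg have source names reading resistant where all others read treated. Nothing in the labels says that replicates came from separate donor tumours, so p-values measure only the spread between these samples. Levels are MAS5 signals, the linear expression summary of Affymetrix arrays, and differences are on the scale log2(signal + 2.4), taken as 160 minus 40 mg/kg.

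In the Hedgehog pathway, secreted ligands bind the receptor Ptch1, which otherwise holds the membrane protein Smoothened (Smo) inactive, and active Smo sets free the transcription factors Gli1 and Gli2 from the inhibitor Sufu. Loss of Ptch1 in precursors of cerebellar granule neurons leads to medulloblastoma, and NVP-LDE225 (sonidegib) binds Smo. Resistance to Smo inhibitors has been described with mutated Smo, with gained copies of Gli2 and with other changes downstream of Smo, while Gli1, Ptch1 and Hhip are both pathway members and its transcriptional targets. Genes of granule neuron precursors were measured at both doses, 21 of 24 listed genes passing the filter, with list means from 8.14 to 8.73 on the log2 scale at 40 mg/kg and from 7.75 to 9.05 at 160 mg/kg.

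No gene separated the doses after correction for the number of tests. With limma, 0 of 30498 probe sets were called at an adjusted p under 0.05 (percent called 0), the smallest adjusted p was 0.708, and 1976 probe sets had an unadjusted p under 0.05, of which 840 were higher and 1136 lower at 160 mg/kg. This split turned to 1099 higher and 851 lower with quantile normalization and to 1428 higher and 684 lower when array medians were subtracted, so the balance of directions is not a result of the comparison. For 13196 genes, each read by its brightest probe set, 387 (2.93%) were higher and 542 (4.11%) lower at an unadjusted p under 0.05, and 7231 (54.8%) had a difference below 0. The median absolute difference was 0.12, and for 11372 genes (86.2%) the 95% interval lay inside a 2-fold change in either direction. A difference of 2-fold or more was estimated for 114 genes, 13 higher and 101 lower, and none of these passed. Statements of direction below are therefore values that did not pass unless said otherwise.

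**Figure D1:**
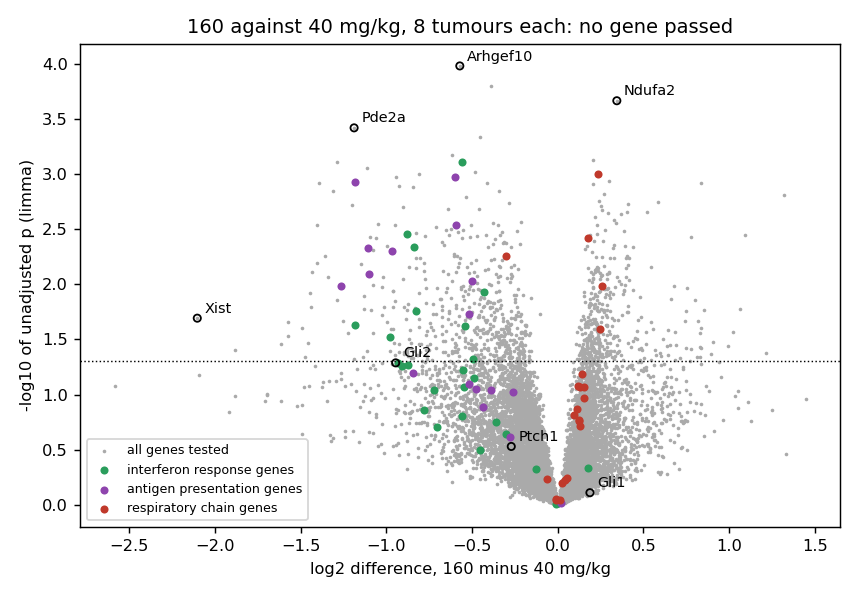
Each point is 1 of 13196 genes; the x axis is the log2 difference, 160 minus 40 mg/kg, and the y axis is -log10 of limma's unadjusted p, with the dotted line at the unadjusted threshold of 0.05. Interferon (green) and antigen presentation genes (purple) lie mostly left of 0, the respiratory chain genes (red) mostly right of 0 with small differences, and no gene passed after adjustment.

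Gli2, the main activating transcription factor of the pathway, was high in most tumours at 40 mg/kg and low in most at 160 mg/kg. At 40 mg/kg the Gli2 signal was 1985, 1909.7, 1919, 2502, 1949.6 and 1934 in tumours 1, 2, 3, 4, 5 and 7, but 578 and 547 in tumours 6 and 8. At 160 mg/kg it was 388, 417, 457, 638, 542 and 758 in tumours 1, 3, 4, 6, 7 and 8, with 1348 in tumour 5 and 4326 in tumour 2. Of the tumours at 160 mg/kg, 4 lay below all tumours at 40 mg/kg, 3 lay within their range and 1 above it. The means at the lower and higher dose were 1665 ± 708 and 1109 ± 1336 (SD, n = 8 each), a log2 difference of -0.95 (95% interval -1.90 to 0.01; limma adjusted p = 0.768). A second Gli2 probe set gave -0.93. Without 160 mg/kg tumour 2 the difference was -1.30 with a limma adjusted p = 0.788, and over 24 alternatives it ran from -1.41 to -0.81.

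The genes that lie next to Gli2 on chromosome 1 followed the same division of tumours, with the exception of the tumour in which Gli2 was highest. Neighbours were taken as the genes within 3 Mb of Gli2 in the GRCm38.p6 gene table whose mean log2 value was above 6, a rule chosen after the values had been seen, so these are descriptions. There were 14 such neighbours, and 6 dimmer genes were left out. Relative to the median of the 16 tumours, the median over the 14 neighbours was 0.75, 1.38, 1.03, 1.39, 1.78 and 1.28 on the log2 scale in 40 mg/kg tumours 1, 2, 3, 4, 5 and 7, and 1.31 in 160 mg/kg tumour 5. In the other 9 tumours it ran from -0.56 to 0.10. These 7 tumours are the same ones in which Gli2 signal lay from 1348 to 2502. The exception was tumour 2 at 160 mg/kg: its Gli2 signal was 4326, but the neighbours had a median of -0.52, and 14 of 14 were below the median of all tumours.

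Of the neighbours, 14 of 14 had lower means at 160 mg/kg and 14 of 14 had an unadjusted p under 0.05, with differences from -1.41 for Epb41l5 to -0.62 for Ccdc93 and a median of -0.94, beside 4.11% of all genes lower at that p. Neighbours share tumours and place, so they do not count as 14 separate results, and their smallest adjusted p was 0.708. Clasp1, which stabilizes the growing ends of microtubules, had signals of 2827 ± 1140 and 1364 ± 418 at the lower and higher dose (SD, n = 8 each), a log2 difference of -0.95 (-1.53 to -0.37). Ralb, a small GTPase of the Ras family, had 445 ± 227 and 173 ± 107 (SD, n = 8 each), a difference of -1.31 (-2.04 to -0.58). Dbi, an acyl-CoA binding protein, had 6214 ± 2618 and 3476 ± 1986 (SD, n = 8 each). Insig2, which retains sterol sensors in the endoplasmic reticulum, had 849.6 ± 427 and 416 ± 295 (SD, n = 8 each). In each of these genes the groups overlapped. Leaving out each tumour in turn left 11 to 14 of the 14 neighbours at an unadjusted p under 0.05, with medians from -1.15 to -0.83.

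The stretch of chromosome 1 in which neighbouring genes stood above the other tumours differed in length. Windows of 6 neighbouring genes were moved along each chromosome, and overlapping windows with a median at least 1 log2 above or below the 16-tumour median were joined into runs. A run that held Gli2 was found in 6 tumours. It covered 12 genes in 40 mg/kg tumour 3, from Nifk to Insig2, 18 in tumour 7, 19 in tumour 2, 34 in tumour 4, from Phlpp1 to Yod1, and 89 in tumour 5, from Eif4e2 to Ctse. It covered 59 genes, from Gli2 to Ipo9, in tumour 5 at 160 mg/kg. In 40 mg/kg tumour 1 the neighbours had a median of 0.75 and no window reached 1. Other named genes lie in the run of 40 mg/kg tumour 5. Zcchc2 read 872 there against 184 to 367 in the rest of that dose, and Bcl2, an inhibitor of apoptosis, read 644 there against 99.7 to 391. Hes6, a factor of the Notch pathway, lies in the same run and, in tumour 4 of that dose, in a separate run of 18 genes. It read 2438 in tumour 4 and 1480.1 in tumour 5 against 371 to 633 in the remaining 6. DNA was not measured, and the part of gene copy number in these values was not tested.

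**Figure D2:**
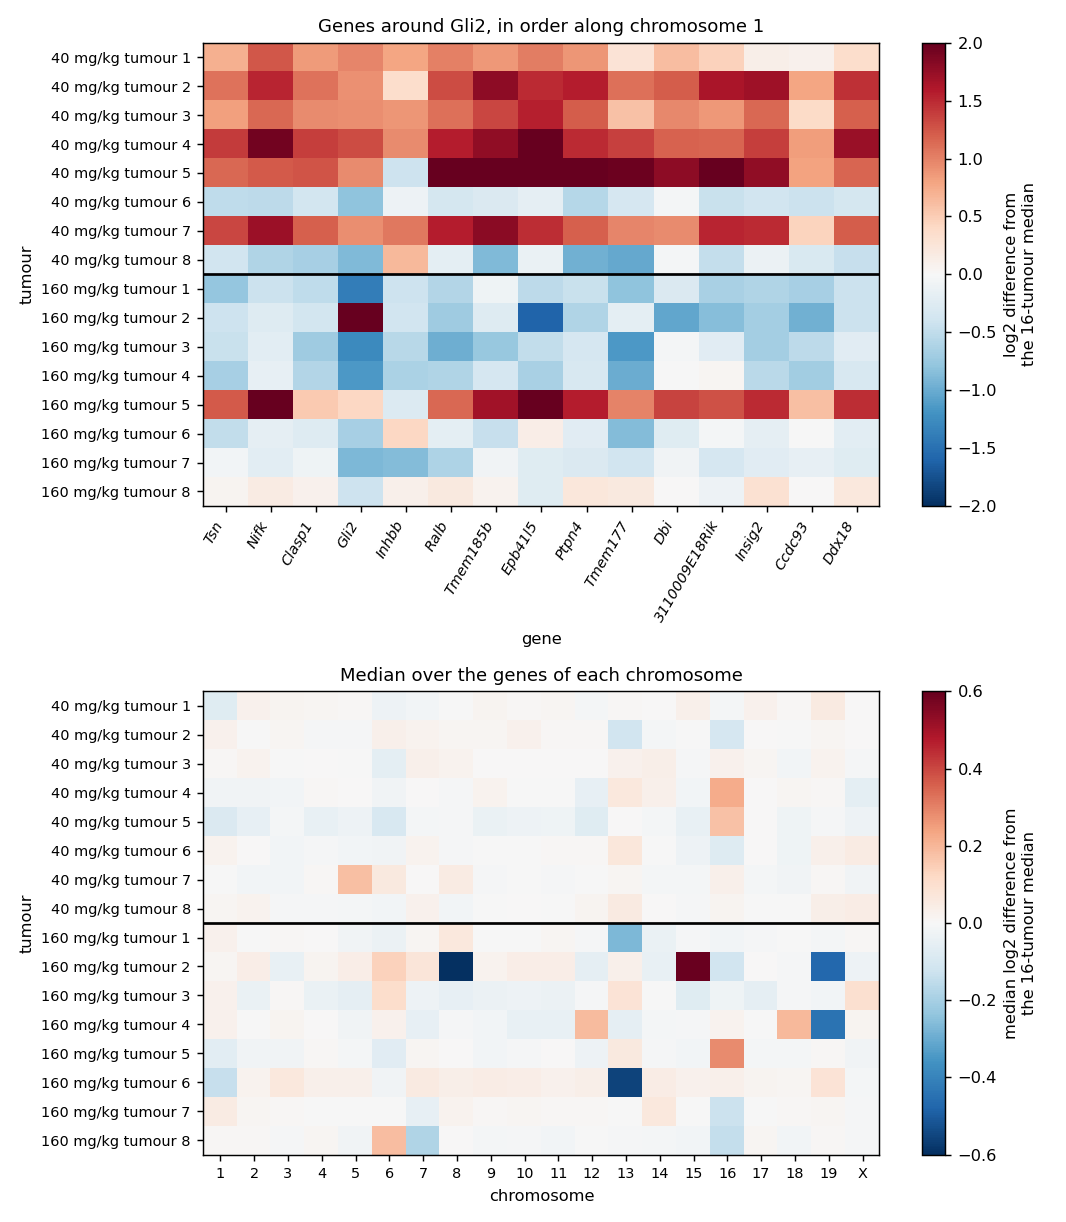
Rows are the 16 tumours, with 40 mg/kg above and 160 mg/kg below the black line; colour is the log2 difference from the 16-tumour median, for Gli2 and its 14 neighbours in order along chromosome 1 (upper panel, colour ends at 2) and as the median over the genes of each chromosome (lower panel, colour ends at 0.6). The neighbours are high in 6 tumours at 40 mg/kg and in 160 mg/kg tumour 5, Gli2 alone is high in 160 mg/kg tumour 2, and the strongest chromosome-wide values lie in 160 mg/kg tumours 2, 4 and 6.

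Whole chromosomes also stood apart in single tumours, more often at 160 mg/kg. Over 9259 genes with a mean log2 value above 6, the median of the genes of a chromosome was at least 0.15 away from the 16-tumour median in 14 of 320 pairs of tumour and chromosome, 11 of them in 6 tumours at 160 mg/kg and 3 in 3 tumours at 40 mg/kg (a mark chosen after the values had been seen, without a test). For tumour 2 at 160 mg/kg, the 508 genes of chromosome 8 had a median of -0.60, the 344 of chromosome 15 one of 0.59, and the 302 of chromosome 19 one of -0.47. Chromosome 13 stood at -0.56 in 160 mg/kg tumour 6 and at -0.27 in tumour 1, and chromosome 19 at -0.44 in tumour 4. Chromosome 16 stood at 0.28 in 160 mg/kg tumour 5 and at 0.22 and 0.18 in 40 mg/kg tumours 4 and 5. The pairs beyond the mark at 40 mg/kg did not go past 0.22, and 8 of the 11 at 160 mg/kg remained when tumour 2 was not counted. Shorter runs away from chromosome 1 included 29 neighbouring genes of chromosome X, from Amot to Cnksr2, with a median of 1.31 in tumour 8 at 40 mg/kg, and 3 runs of 10 to 16 genes on chromosome 16, with medians from 1.01 to 1.08, in tumour 3 at 160 mg/kg, 1 of which holds the coreceptor gene Boc. Ptch1 and the coreceptor gene Gas1 lie on chromosome 13, Hhip on chromosome 8 and Sufu on chromosome 19.

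Gli1, a Hedgehog target and amplifier, did not track the dose. Its signal stood far above the rest in 1 tumour of each dose, at 2286 for tumour 8 of the 40 mg/kg group and at 2638 for tumour 1 of the 160 mg/kg group. At 40 mg/kg the other tumours lay from 106 to 598, and at 160 mg/kg from 113 to 331. The log2 difference was 0.19 (-1.18 to 1.55; limma adjusted p = 0.973), and it turned to -0.28 without 160 mg/kg tumour 1. Tumour 2 at 160 mg/kg had a Gli1 of 175 beside the highest Gli2, and in tumour 1 Gli2 was at its lowest, 388, beside the highest Gli1. Tumour 8 at 40 mg/kg, highest for Gli1 in its group, likewise had the group's lowest Gli2. Other tumours went otherwise: 40 mg/kg tumour 7 had the group's next highest Gli1, 598, with a Gli2 of 1934, and tumour 6 had 215 with 578. In 160 mg/kg tumours 4, 6, 7 and 8, with Gli2 from 457 to 758, Gli1 ran from 113 to 231.

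The other targets and brakes of the pathway overlapped widely. Ptch1, the receptor and brake, ran from 864 to 2427 at 40 mg/kg and from 484 to 1673 at 160 mg/kg, a difference of -0.27 (-0.80 to 0.26), which was 0.03 without 160 mg/kg tumours 6 and 7. The lowest value, 484, was that of 160 mg/kg tumour 6, where chromosome 13 stood at -0.56. In that tumour Ptch1 was also the first gene of a low run of 10 genes with a median of -1.02. The highest Ptch1 value of that dose, 1673, was that of tumour 1, where chromosome 13 stood at -0.27. Sufu, on chromosome 19, had its highest signal at 160 mg/kg, 397 for its brightest probe set, in tumour 2, where that chromosome stood at -0.47. Whether gene values follow those of their chromosome was not tested. Hhip, which binds and removes ligands, ran from 101 to 380 at 40 mg/kg and from 32.9 to 470.4 at 160 mg/kg, with 3 tumours at 160 mg/kg below and 2 above all tumours at 40 mg/kg (difference -0.56, -1.54 to 0.42). Smo, the target of the drug, had 487 ± 91.6 and 534 ± 138 (SD, n = 8 each), a difference of 0.12 (-0.21 to 0.44), and Sufu 0.03 (-0.23 to 0.28). For both genes the interval lies inside a 2-fold change, and both differences turned negative without 160 mg/kg tumours 6 and 7 (-0.03 and -0.02). The 2 other Sufu probe sets had negative differences, the lowest -0.22. Among targets that drive growth, the cyclin gene Ccnd1 had a difference of 0.04 (-0.30 to 0.37) and Mycn one of -0.03 (-0.41 to 0.34), and 2 other Mycn probe sets gave 0.12 and 0.33. Of 17 Hedgehog target genes tested, 10 were lower and 7 higher, 0 at an unadjusted p under 0.05, with a median of -0.05 beside -0.02 for all genes. The 3 probe sets of Gli3 read 0.9 to 26.3 and did not pass the filter.

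The coreceptors that help ligand binding had lower estimates at 160 mg/kg without passing the test, and for Boc the interval held 0. Cdon read 37.3 ± 6.69 and 23.5 ± 7.27 (SD, n = 8 each), and 5 of the 8 tumours at the higher dose lay below all tumours at the lower one (difference -0.65, -1.06 to -0.25; limma adjusted p = 0.708). Its signals at 160 mg/kg, 12.4 to 34.2, lay around the filter level of 19.7 to 24.8, so the size of the difference is uncertain. Over 28 alternatives the Cdon difference ran from -0.73 to -0.44. Gas1 had 966 ± 338 and 659.7 ± 178 (SD, n = 8 each), with a difference of -0.53 (-0.97 to -0.09; limma adjusted p = 0.745), and its lowest value was again in 160 mg/kg tumour 6 (364). The third coreceptor, Boc, had -0.27 (-0.70 to 0.16). Of 25 pathway components tested, 2 were lower at an unadjusted p under 0.05, Cdon and Gas1, beside 4.11% of all genes. At that p 0 were higher, beside 2.93% of all genes, and the median was 0.03. Atoh1, the transcription factor of granule neuron precursors, ran from 353 to 1404 at 40 mg/kg and from 661 to 1954 in 7 tumours at 160 mg/kg, but was 22.5 in tumour 2.

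**Figure D3:**
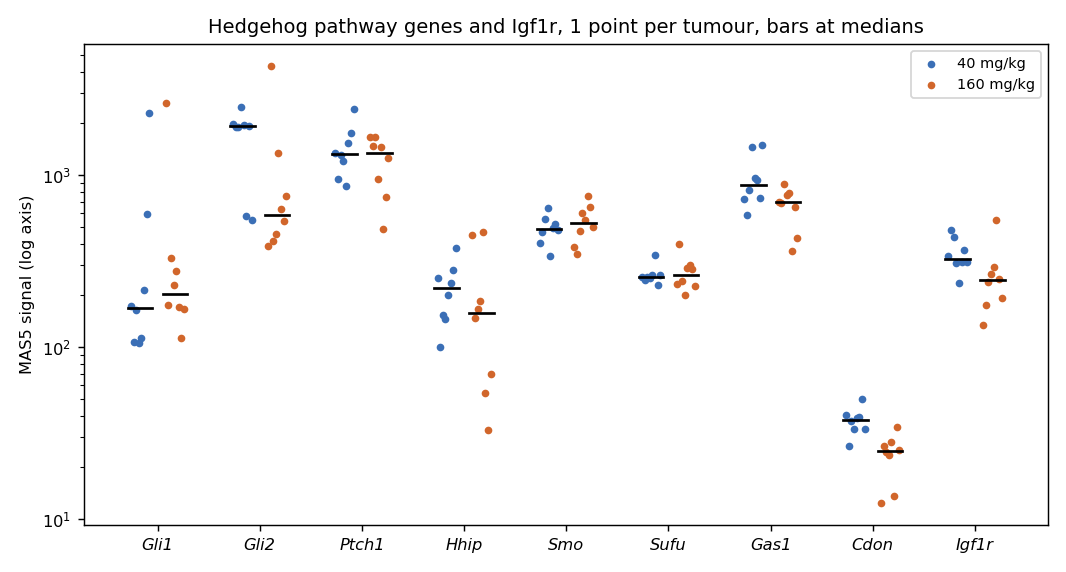
Each point is the MAS5 signal of 1 tumour on a log axis, with 40 mg/kg in blue, 160 mg/kg in orange and bars at the medians of 8. Gli2 splits into high and low tumours in both groups, Gli1 has 1 tumour far above the rest in each, and Smo and Sufu lie in narrow, overlapping ranges.

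Growth factor signalling through the IGF receptor and PI3K has been described as a bypass in tumours resistant to Smo inhibitors. Igf1r, the receptor, ran from 237 to 478 at 40 mg/kg and from 134 to 549 at 160 mg/kg, where 3 tumours lay below and 1, tumour 6, above all tumours at 40 mg/kg (difference -0.49, -0.95 to -0.04; limma adjusted p = 0.758). Its 4 other probe sets had differences from -0.58 to -0.22. The ligand gene Igf2 varied from 58.7 to 2521 at 40 mg/kg and from 85.8 to 2073 at 160 mg/kg, with a difference of -0.19 (-1.70 to 1.32). The kinase gene Akt1 was higher, with 557 ± 132 and 702 ± 134 (SD, n = 8 each) and a difference of 0.35 (0.03 to 0.67; limma adjusted p = 0.758). Of 32 genes of the list, 26 were lower and 6 higher, 4 (beside 4.11% of all genes) and 1 (beside 2.93%) of them at an unadjusted p under 0.05, with a median of -0.19. The count of 4 was 0 without 40 mg/kg tumour 2, 1 without tumour 3 of either dose, and 2 without tumour 1 of either dose or tumour 4 or 6 at 160 mg/kg. In these fits 3.39% to 5.58% of all genes were lower at that p. With quantile normalization the count was 2, beside 3.26% of all genes, and with array medians subtracted 1, beside 2.39%.

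Interferon response genes, which cells switch on after sensing interferon or viral RNA, were lower at 160 mg/kg in nearly the whole list. Of 25 tested, 24 had lower means, 9 of them at an unadjusted p under 0.05 (36%, beside 4.11% of all genes), 0 were higher at that p, and the median was -0.56 beside -0.02 for all genes. The list mean was highest in tumours 6 and 8 at 40 mg/kg, 7.48 and 7.38 on the log2 scale, and next in 160 mg/kg tumour 1, 6.90. The other 6 tumours at 40 mg/kg lay from 5.99 to 6.45 and the other 7 at 160 mg/kg from 5.16 to 6.07. Without 40 mg/kg tumours 6 and 8, an alternative chosen after the data were seen, 3 of 24 genes had an unadjusted p under 0.05. The share of all genes lower at that p was 3.43% in that fit, and the list median was -0.29. Without tumour 6 or tumour 8 alone 5 of 24 interferon genes had that p, beside 3.72% and 4.00% of all genes. The count was 16 of 24 with 160 mg/kg tumour 1 left out, beside 4.398% of all genes in that fit. With 160 mg/kg tumours 6 and 7 left out the count was 4 of 25, beside 6.37% of all genes.

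Single interferon genes differed in how far they followed those tumours. Oas1a, an oligoadenylate synthetase that activates RNA decay, had signals of 81, 105.9, 123, 92.4, 96.7, 113.9, 104.1 and 109.5 in 40 mg/kg tumours 1 to 8. At the higher dose, again from tumour 1 to 8, it had 93.4, 75.3, 52.5, 100.6, 64.7, 65.5, 59.8 and 54. All but 2 of the tumours at the higher dose lay below all of those at the lower one, and the difference was -0.56 (-0.85 to -0.27; limma adjusted p = 0.708). Ifi35, an interferon-induced protein, had 276 ± 124 and 147 ± 63.6 (SD, n = 8 each), a difference of -0.88 (-1.43 to -0.33), and its highest signals, 495 and 425, were those of 40 mg/kg tumours 6 and 8. Rtp4, another interferon target, had -0.84 (-1.38 to -0.29) with 297 and 324 in the same 2 tumours against 101 to 174 in the others of that dose. Ddx58, which encodes the RNA sensor RIG-I, had -0.43 (-0.75 to -0.11).

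Genes of antigen presentation were lower together with them. Of 17 tested, 16 had lower means at 160 mg/kg, 9 of them at an unadjusted p under 0.05, beside 4.11% of all genes. At that p 0 were higher, and the median was -0.52 beside -0.02 for all genes. Without 40 mg/kg tumours 6 and 8, 6 of 17 had an unadjusted p under 0.05, beside 3.43% of all genes in the same fit, and the median was -0.40. B2m, the light chain of MHC class I molecules, had 2438 ± 840 at the lower dose, with 3940 and 3503 in tumours 6 and 8, and 1566 ± 287 at the higher one (SD, n = 8 each), a difference of -0.59 (-0.95 to -0.23; limma adjusted p = 0.708). H2-D1, a class I heavy chain, had 699.6 ± 230 and 447.5 ± 66.4 (SD, n = 8 each), and 5 tumours at 160 mg/kg lay below all at 40 mg/kg. Heavy chains resemble each other in sequence, so their probe sets can share signal. Tap1, which carries peptides into the endoplasmic reticulum, had 40.6 ± 17.8 and 17.15 ± 8.64 (SD, n = 8 each), with 7 of 8 tumours below all at 40 mg/kg. Most of its signals at 160 mg/kg were near or under the filter level, so the size of the difference is uncertain: it was -1.19, but -0.76 with a pseudocount of 16 and -1.27 with 1. The class II chain H2-Eb1 had a difference of -1.10 (-1.82 to -0.39).

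Class II genes and several interferon genes are also expressed by macrophages. The macrophage and microglia list had 19 of 19 markers with lower means, 0 at an unadjusted p under 0.05, and a median of -0.30, but 5 of 19 had that p without 160 mg/kg tumour 6, beside 5.58% of all genes in that fit, and 10 of 19 without tumours 6 and 7, beside 6.37%. Its mean ran from 5.93 to 7.66 at 40 mg/kg and from 5.61 to 8.57 at 160 mg/kg, with the highest value in 160 mg/kg tumour 6. Over the 16 tumours, the antigen presentation mean had a Pearson correlation of 0.21 with the macrophage mean and 0.73 with the interferon mean. In bulk tumours, fewer cells of a type cannot be told apart from less RNA per cell, and the part of macrophage content in these lists was not tested.

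The promoters of Oas1a and B2m are shown because, of the 7 named genes of these lists looked up, these have in their window a repeated GAAA sequence of the kind bound by interferon regulatory factors. The letters searched were GAAANNGAAA and its reverse complement TTTCNNTTTC, on both strands with overlaps counted, in the 250 bases before the start of each gene (RefSeq, GRCm38.p6), and capitals mark the matches. The Oas1a window is chr5:120907526-120907775 on the minus strand and holds 2 overlapping matches that begin 20 and 14 bases before the start. The B2m window is chr2:122147437-122147686 on the plus strand and holds 1 match that begins 139 bases before the start.
Oas1a: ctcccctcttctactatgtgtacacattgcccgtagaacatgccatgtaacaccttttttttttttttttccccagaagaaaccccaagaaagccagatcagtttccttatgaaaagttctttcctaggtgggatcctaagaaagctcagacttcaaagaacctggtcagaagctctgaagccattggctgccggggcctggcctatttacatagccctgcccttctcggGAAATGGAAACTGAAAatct
B2m: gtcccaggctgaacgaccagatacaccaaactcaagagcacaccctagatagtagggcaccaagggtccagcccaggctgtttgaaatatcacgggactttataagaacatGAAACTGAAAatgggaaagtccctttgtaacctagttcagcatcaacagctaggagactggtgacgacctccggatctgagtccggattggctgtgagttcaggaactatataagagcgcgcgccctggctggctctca
Of the interferon list, 8 of 18 genes found in the promoter table had a match, and of the antigen presentation list 1 of 12, beside 936 of 27025 genes of the table (3.46%). Of 7 named genes of these lists looked up, Ddx58, Ifi35, Tap1, H2-D1 and H2-Eb1 had no match in their window. Rtp4 was not among the 7. A match is a description of letters, and binding was not measured.

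**Figure D4:**
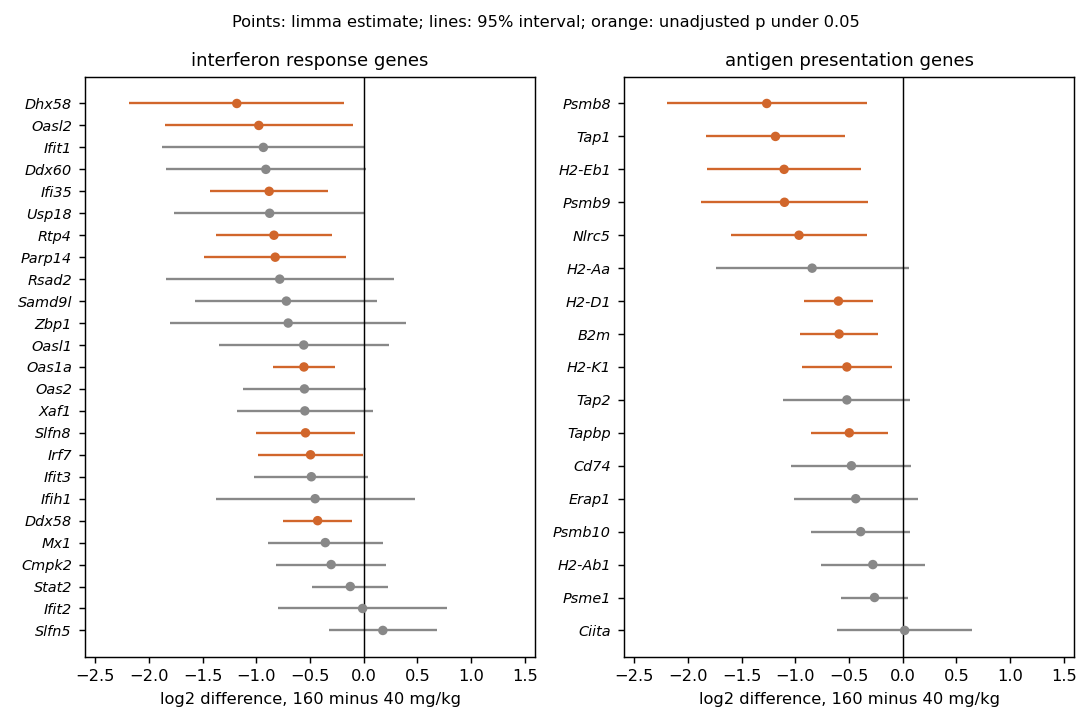
For each gene of the interferon (left) and antigen presentation list (right), the point is the log2 difference, 160 minus 40 mg/kg, and the line its 95% interval from limma; orange marks an unadjusted p under 0.05. Points left of 0 are lower at 160 mg/kg, which holds for 24 of 25 and 16 of 17 genes.

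Apart from the lists, the genes with the smallest p at 160 mg/kg below 40 mg/kg had differences from -1.19 to -0.39. In 2 of 13196 genes (0.0152%) the groups did not overlap. Arhgef10, a guanine nucleotide exchange factor, read 78.3, 73.8, 55.5, 86.9, 59.1, 65.3, 81.7 and 59.5 in 40 mg/kg tumours 1 to 8. The 160 mg/kg tumours 1 to 8 read 44.7, 46.7, 45, 45.5, 50.3, 40.8, 39.8 and 55, the last just under the 55.5 of the other dose. The difference was -0.57 (-0.81 to -0.33; limma adjusted p = 0.708), and its 2 other probe sets gave -0.55 and -0.25. Lsm14a, a component of RNA processing bodies, was the other such gene, with 1151 ± 98.2 and 883 ± 115 (SD, n = 8 each), a difference of -0.39 (-0.56 to -0.22), and smaller differences of -0.12 and -0.11 for its 2 other probe sets. Pde2a, which degrades cyclic nucleotides, had 767 ± 373 and 314 ± 99.0 (SD, n = 8 each), a difference of -1.19 (-1.76 to -0.62; limma adjusted p = 0.708), and its 2 other probe sets gave -0.95 and -1.17. The remaining genes of this direction were the receptor Lrp10 (-0.45), the laminin receptor subunit Itga6 (-0.62), Oas1a, the transcription factor Eya1 (-1.11), the peptide ligand Apln (-0.48), Strc (-0.81) and Zcchc2 (-0.95). Most Eya1 signals at 160 mg/kg were near or under the filter level, and its difference ran from -1.33 to -0.81 over 28 alternatives.

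Genes above at 160 mg/kg were led by abundant genes with narrow spread. Ndufa2, a subunit of respiratory complex I, lay from 1975.7 to 2292 at 40 mg/kg and from 2211 to 3212 at 160 mg/kg, where 7 of 8 tumours exceeded all at 40 mg/kg (difference 0.34, 0.19 to 0.50; limma adjusted p = 0.708). Ndufa4 of the respiratory chain had 2905 ± 218 and 3420.02 ± 285 (SD, n = 8 each), a difference of 0.23 (0.11 to 0.36), and Cox6c had 0.26 (0.07 to 0.45). Of 22 respiratory chain genes, 18 were higher, 4 at an unadjusted p under 0.05 beside 2.93% of all genes, and 1 was lower at that p, the complex I gene Ndufv1 (-0.30, -0.51 to -0.10). Their median was 0.12, and all 22 intervals lay inside a 2-fold change. The other genes of this direction were Spcs1 of the signal peptidase (0.21), the tRNA-processing enzyme Trnt1 (0.30), the lectin Mgl2 (0.84), the ribosomal protein Rpl22 (0.20), the kinase Mapk8 (0.27), Eloc (0.24), Ankrd26 (0.41) and the receptor gene Gpr20. Gpr20 passed the filter mainly through the 160 mg/kg tumours: it read 1.7 to 26.6 at 40 mg/kg and 19 to 39.4 at 160 mg/kg, near the filter level, and its estimated difference was 1.32 but 0.70 with a pseudocount of 16. Probe sets disagreed in sign for Spcs1 (-0.29 to 0.24 over 3), Rpl22 (-0.02 to 0.20 over 3) and Mapk8 (-0.03 to 0.87 over 5).

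Lists of growth and cell state gave small medians, and their counts at an unadjusted p under 0.05 are to be read against 4.11% of all genes lower and 2.93% higher. Of 24 mitotic genes 0 were called and 24 of 24 had an interval inside 2-fold, with a median of 0.05, and 22 of 22 DNA replication genes did, with a median of 0.02. Of 18 cholesterol synthesis genes 18 did (median -0.02), and of 25 cilium genes 25 (median -0.03). Notch signalling genes had a median of -0.25 with 2 of 18 lower at an unadjusted p under 0.05, Notch1 (-0.49, -0.83 to -0.15) and Hes6 (-0.73, -1.46 to -0.01), the latter with the high values of 40 mg/kg tumours 4 and 5 given above. Among TGF-beta and BMP targets 3 of 13 were lower at that p, led by Bmp7 (-1.08, -1.78 to -0.37). Hypoxia and glycolysis genes had 21 of 24 lower means with 0 at that p and a median of -0.25, but 7 when tumour 5 at 40 mg/kg was left out and 8 when tumour 8 at 160 mg/kg was, beside 4.04% and 4.74% of all genes in those fits. Leaving out single tumours moved the counts of the Notch and TGF-beta lists between 1 and 4. Neuronal maturation genes had a median of 0.10 with 3 of 28 higher at that p (0 to 6 without single tumours), and granule neuron precursor genes one of -0.02 with 2 of 21 higher and 1 lower. Drug efflux and detoxification genes had a median of -0.10 with 2 of 17 lower.

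Markers of host and other cell types varied widely between tumours of the same dose. At an unadjusted p under 0.05, 4.11% of all genes were lower, and the share was 5.58%, 4.66% and 4.44% in the fits without 160 mg/kg tumour 6, 7 or 5. The skeletal muscle list had a mean log2 value of 9.47, 8.73 and 8.48 in 40 mg/kg tumours 5 and 6 and 160 mg/kg tumour 7 and ran from 3.85 to 6.96 in the others. Its median difference was -1.31, with 20 of 21 markers lower and 0 at an unadjusted p under 0.05, or 10 of the 18 that then passed the filter without 160 mg/kg tumour 7. Fibroblast and matrix markers had 20 of 22 lower means, 4 at that p, and a median of -0.38, with 11 at that p without 160 mg/kg tumour 6 and 2 without tumour 5, and with Col1a2, a collagen chain, at -0.99 (-1.83 to -0.16). Endothelial markers had 13 of 16 lower and 3 higher means, 4 of them lower at that p, and a median of -0.10. That median was -0.01 over the 5 markers that passed the stricter filter. Among the 4 were the adhesion molecule Pecam1 (-0.75, -1.38 to -0.12), the TGF-beta coreceptor Eng (-0.43, -0.77 to -0.09) and Plvap (-0.67, -1.21 to -0.13). Without 160 mg/kg tumour 1, where Pecam1 read 7.2, its difference was -0.48. Myelin and oligodendrocyte markers had 12 of 13 lower means, 0 at that p, and a median of -0.51. Astrocyte and radial glia markers had 8 of 13 lower and 5 higher means, 1 of them lower at that p, and a median of -0.15. That 1 was S100b, a calcium-binding protein of glia, with 865 ± 454 and 444 ± 371 (SD, n = 8 each), a difference of -1.44 (-2.58 to -0.30), with 56.8 and 51.7 in 160 mg/kg tumours 2 and 6, while the glutamate transporter gene Slc1a2 had 0.24. Of 18 lymphocyte and NK markers 4 passed the filter, and of 12 neutrophil markers 5. The part of host tissue in the other lists was not tested beyond the covariate of the muscle list, under which 0 probe sets were called.

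**Figure D5:**
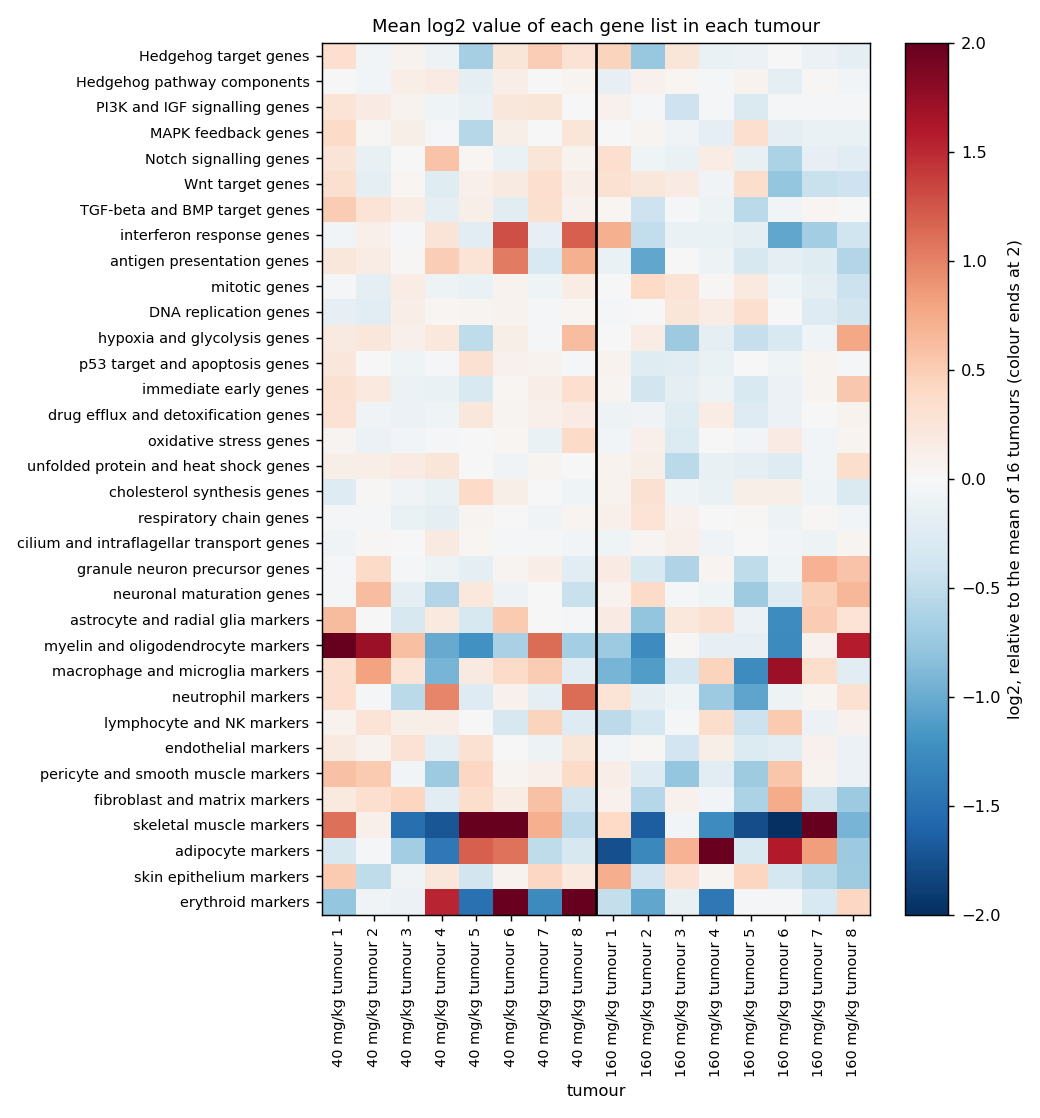
Colour is the mean log2 value of a gene list in a tumour relative to its mean over 16 tumours (colour ends at 2), with 40 mg/kg left and 160 mg/kg right of the black line. Interferon and antigen presentation genes are highest in 40 mg/kg tumours 6 and 8, and among the lists drawn the skeletal muscle, adipocyte, myelin and erythroid rows have the widest ranges; Xist, whose range is wider than that of the last 3, is not drawn.

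Xist, the RNA that coats the inactive X chromosome, had signals of 1394.5, 1930.7, 322, 5098, 356, 3943, 2510.4 and 3196 in 40 mg/kg tumours 1 to 8. The 160 mg/kg tumours 1 to 8 had 131, 109, 274, 2756, 104, 467, 149 and 5087. Low and high tumours occurred at both doses, with 5 tumours at 160 mg/kg below all at 40 mg/kg, and the difference was -2.10 (-3.84 to -0.37; limma adjusted p = 0.745). The 9 probe sets of 3 Y-linked genes read at most 19 in all 16 tumours, under the 40th percentile of each array, which ran from 19.7 to 24.8.

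As whole profiles the doses were mixed. The mean correlation of log2 values was 0.944 over the 28 pairs within 40 mg/kg, 0.933 over the 28 within 160 mg/kg and 0.938 over the 64 pairs between doses, and the most similar tumour was one of the same dose for 7 of 16 tumours. The doses differed in this: at 40 mg/kg it held for all but tumours 2 and 6, and at 160 mg/kg for tumour 2 only. The first principal component held 15.9% of the variance and overlapped between doses, and the second (12.6%) set 160 mg/kg tumour 2 apart. Tumours at 160 mg/kg were the more varied: the median SD of a gene was 0.32 against 0.26 at 40 mg/kg, larger in 68.1% of genes, and 0.30 and 61.9% without tumour 2. The median signal of an array lay between 32.7 and 42.5. Precision is limited by having 8 arrays per dose.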

How the data were processed

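Expression was measured on Affymetrix oligonucleotide arrays, 1 per tumour, and 16 of 19 arrays were used. The values are intensity signals on a linear scale that the authors deposited in a single table, made with MAS5 per the submitters' processing notes. MAS5 subtracts background and mismatch signal and scales each array, and the 2% trimmed mean was near 149 on all of them (149.327 to 149.418). The scaling target and hybridization batches are left unstated in the sources used here. The series text names the 430A 2.0 array, whereas the probe sets are listed by the platform table of the larger 430 2.0 array, which names the genes.

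From 45101 probe sets, 64 controls were left out, and 34945 had a single symbol, 932 several and 9160 none. Signals were transformed as log2(signal + 2.4), the 10th percentile as pseudocount, without further normalization, so differences of dim genes are understated. Probe sets above the 40th percentile on at least 3 arrays were kept, 30498 in all, and a gene was read by its kept probe set with the highest mean (13196 genes, of which 13169 matched the GRCm38.p6 gene table used for chromosome and order). limma 3.58.1 in R 4.3.3 (lmFit, eBayes with variance trend, 14 residual degrees of freedom before moderation, two-sided) gave differences, 95% intervals and Benjamini-Hochberg adjusted p-values. The fit was tested on simulated data. Alternatives were quantile and median scaling, pseudocounts of 1 and 16, no and a stricter filter, other variance models, vehicle arrays in the fit, the replicate number as block, a muscle covariate, and leaving out arrays.

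The comparison, the 35 gene lists and the rule for named genes were written with earlier results of these data known. The rule named the 10 genes with the smallest p in each direction where none were called, without clone-like symbols, 15 Hedgehog and growth genes, and up to 4 genes with the smallest p per list. The neighbours of Gli2, the runs and the chromosome medians were looked at after the values had been seen.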

Additional observations from a re-analysis of the deposited data

Results flagged for a closer look

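Among 328 groups of 8 values of named genes, 24 (7.32%) had a tumour whose gap to the nearest other was above Dixon's 95% limit, where chance gives about 1 in 20. They lay in 7 tumours, with 8 for tumour 2 at 160 mg/kg and 6 for tumour 5 at 40 mg/kg, and no explanation was tested. For tumour 2 at 160 mg/kg, the transcription factor Atoh1 had a signal of 22.5 against at least 661 in the other 7, Hey1 117.3, Hsd11b2 31.8 (on chromosome 8, which stood low there), Krt10 161.2, Pmaip1 81.7 and Strc 24.9, all below the others of that dose, while the synaptic gene Cplx1 (1056.9) and the skin gene Lor (108.1) lay above. For tumour 5 at 40 mg/kg, Atoh1 (352.6), Etv4 (2.4), Foxm1 (112.2) and Pdk1 (183.4) lay below the others, and Jund (1259.7) and Zcchc2 (871.5, within the long run on chromosome 1) above. For tumour 1 at 160 mg/kg, Gli1 lay above at 2637.7. For tumour 5 at 160 mg/kg, the transporter gene Abcc4 (2.7) and the Fc receptor gene Fcgr1 (7.5) lay below. For tumour 6 at 160 mg/kg, Notch1 lay below at 82.8 and the smooth muscle gene Tagln above at 444.3. For tumour 4 at 40 mg/kg, the macrophage protease gene Ctss (236.3) and the replication gene Rfc4 (255.2) lay below and Lsm14a (1375.7) above. For tumour 6 at 40 mg/kg, the oligodendrocyte precursor gene Pdgfra lay below at 444.6 and Sufu above at 343.4.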

How the results depend on the processing

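The count of 0 called probe sets (limma, adjusted p under 0.05) held with quantile normalization, array medians subtracted, pseudocounts of 1 and 16, no or a stricter filter, no variance trend, array weights, the vehicle arrays in the fit, the muscle covariate, 160 mg/kg tumours 6 and 7 left out, a 2-fold threshold, and each of the 16 arrays left out in turn (0 to 0 called). The smallest adjusted p over the settings that called none was 0.0678, without the variance trend. Without correction the count is 1976. Without 40 mg/kg tumours 6 and 8, the 2 tumours highest for interferon genes and chosen after seeing the data, 4 probe sets were called, all lower at 160 mg/kg: 3 of Clasp1 (log2 differences -1.36, -1.53 and -1.70) and 1 of Tmem177 (-1.79), both neighbours of Gli2 and named after their values were seen. These 2 tumours are also the 40 mg/kg tumours without high Gli2 neighbours, as the values by tumour show. With the replicate block 0 were called and the smallest adjusted p was 0.0969. Same-numbered tumours did not deviate together (correlations from -0.13 to 0.09, 0 of 8 over 0.1, and 0 of 8 best with their own number). No pairing by number was thus seen, but whether same-numbered samples share a source was not tested. Of 4699 values of 164 named genes under the alternatives 0 passed, and 64 changed sign, in 15 genes, among them Gli1, Ptch1, Smo, Sufu, Ccnd1, Mycn, Igf2 and Atoh1; the cause was not tested. Of 873 list medians 2 moved by more than 1 SD between tumours. The number of arrays and the spread between tumours limit the comparison: a median SD of 0.30 leaves intervals of about 0.31 on either side.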
